A study of Mus musculus with 9 samples.

Results

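The genes described are 10 regulators of DNA methylation and of germline gene silencing: the DNA methyltransferase genes Dnmt1, Dnmt3a, Dnmt3b and Dnmt3l, the maintenance factor gene Uhrf1, the methylcytosine oxidase genes Tet1, Tet2 and Tet3, and the repressor genes E2f6 and Pcgf6. They were chosen by symbol, as 10 of the 54532 genes in the deposited table of counts, and each was matched by its Ensembl identifier. Expression was measured by poly(A) RNA-seq in sorted cells of mouse neural tube organoids, as 9 libraries. The organoids were grown clonally in Matrigel from the R1 line of mouse embryonic stem cells, which here carried the genotype FoxA2-Venus, in N2B27 medium, so that all groups share 1 cell line, genotype and basal medium. The medium was changed on day 2, and the cells were sorted for low (GFP-) or high (GFP+) fluorescence through a GFP filter set 66 hours later. The 3 groups, with 3 biological replicates each, were GFP- and GFP+ cells from medium with all-trans retinoic acid (RA) and GFP+ cells from medium with SAG. The labels give SAG in the sample titles only and do not spell it out, and GFP- cells from SAG medium were not analysed here. Sorted populations can hold several cell types.

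DNA methylation is copied to new strands at replication by Dnmt1, which Uhrf1 brings to half-methylated sites, and is placed on unmethylated DNA by Dnmt3a and Dnmt3b. Dnmt3l has no catalytic activity of its own and stimulates these enzymes, mainly in germ cells and early embryonic cells, while the Tet enzymes oxidise methylcytosine and so start its removal. E2f6 and Pcgf6 are subunits of the variant Polycomb complex PRC1.6, which also holds the E-box-binding pair Mga and Max, and which represses many germline genes in embryonic cells before their promoters become methylated.

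Because E2F factors and the Mga and Max pair read short DNA letters near transcription starts, the promoter windows of the regulators and of a list of 25 germline genes were searched for 2 motifs. Windows ran from 250 bases before to 50 bases after each start (RefSeq, GRCm38.p6). The motifs were CACGTG, the E-box, and GCGGGAA, an E2F-type sequence, each on both strands and with no overlap between them. All 10 regulators matched, with 17 windows. CACGTG was in 2 of these (11.8%), and GCGGGAA in 1 (5.88%), against 7.15% and 4.6% of all 32851 windows in the table. For the germline genes, 23 of 25 matched, with 28 windows, of which 53.6% held CACGTG and 35.7% held GCGGGAA. The lists of partner genes read further on had 7 to 20 windows each, with a median of 22 to 32 CG dinucleotides. Depending on the list, 9.09 to 33.3% of their windows held CACGTG and 0 to 36.4% held GCGGGAA. The windows of Dnmt3l were poor in CG dinucleotides, with 6, 4 and 3 CG in its 3 windows, while the median was 22 over the windows of the 10 regulators, 22.5 over those of the germline genes and 7 over all windows. The windows of 4 genes are shown, in lower case with motif letters in capitals, because they belong to the regulator and germline genes whose levels are set side by side further on.
Dnmt3l, chr10:78049592-78049891, + strand, CACGTG 44 bases before the start: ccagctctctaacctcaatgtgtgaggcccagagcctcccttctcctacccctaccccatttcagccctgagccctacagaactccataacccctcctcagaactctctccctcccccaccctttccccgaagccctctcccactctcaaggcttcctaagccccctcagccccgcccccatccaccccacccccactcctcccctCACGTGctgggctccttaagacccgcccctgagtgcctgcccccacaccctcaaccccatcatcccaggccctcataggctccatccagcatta
Uhrf1, chr17:56303087-56303386, + strand, GCGGGAA on the opposite strand 48 bases before the start: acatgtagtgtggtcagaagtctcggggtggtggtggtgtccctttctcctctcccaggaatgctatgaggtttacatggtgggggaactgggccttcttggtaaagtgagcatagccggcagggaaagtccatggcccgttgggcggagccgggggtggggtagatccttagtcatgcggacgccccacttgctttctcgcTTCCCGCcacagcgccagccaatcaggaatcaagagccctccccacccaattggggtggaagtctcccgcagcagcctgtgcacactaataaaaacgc
Slc25a31, chr3:40708621-40708920, + strand, CACGTG 93 bases before and GCGGGAA on the opposite strand 19 bases after the start: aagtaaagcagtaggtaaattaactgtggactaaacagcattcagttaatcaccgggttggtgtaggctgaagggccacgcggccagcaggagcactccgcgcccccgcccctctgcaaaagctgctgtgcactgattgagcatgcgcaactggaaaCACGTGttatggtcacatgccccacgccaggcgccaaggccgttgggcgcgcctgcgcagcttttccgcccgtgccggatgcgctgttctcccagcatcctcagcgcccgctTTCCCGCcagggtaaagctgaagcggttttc
Hormad1, chr3:95559427-95559726, + strand, CACGTG 57 and 20 bases before and GCGGGAA 95 bases before the start: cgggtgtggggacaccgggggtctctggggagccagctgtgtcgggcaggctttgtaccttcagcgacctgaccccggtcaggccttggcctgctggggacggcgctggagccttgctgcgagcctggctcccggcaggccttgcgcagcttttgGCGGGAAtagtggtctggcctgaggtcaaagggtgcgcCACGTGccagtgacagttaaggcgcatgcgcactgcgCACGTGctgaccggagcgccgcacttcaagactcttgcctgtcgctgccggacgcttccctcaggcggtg
Dnmt3l holds a single E-box in a CG-poor window, whereas Slc25a31, a sperm-type adenine nucleotide carrier, and Hormad1, a meiotic chromosome axis protein, hold both motifs in windows with 22 and 24 CG. Slc25a31 and Hormad1 were chosen for display after their values were seen. Of the other germline genes, Ddx4, Stag3 and Sycp3 also hold both motifs, while Dazl and Stra8 are among those that hold neither. A match describes these letters and not a bound site.

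Library totals ran from 25281871 to 29763765 counts, and 16772 genes, including all 10 regulators, passed the filter on low counts. Foxa2, the gene of the sorted reporter, had between 1.33 and 2.51 scaled counts (CPM, counts relative to library size) in the RA GFP- libraries, 133 to 184 in RA GFP+ and 205 to 326 in SAG GFP+. The groups also differed in markers of other cell types. The summed CPM of 12 naive pluripotency markers was 885 to 1286 in RA GFP-, 88.8 to 103 in RA GFP+ and 33.2 to 58.2 in SAG GFP+. For 7 neural progenitor markers the sums were 1106 to 1216, 341 to 525 and 1037 to 1102 in the same order. Those of 7 floor plate markers were 187 to 266, 762 to 1219 and 884 to 1200.0. The endoderm gene Sox17 was at 0.991 to 1.69 CPM in RA GFP-, 34.6 to 55.3 in RA GFP+ and 0.0389 to 0.896 in SAG GFP+.

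A gene was called higher or lower when its adjusted p (edgeR quasi-likelihood test, Benjamini-Hochberg over all tested genes) was under 0.05. Within RA medium, GFP+ against GFP- cells, 3 regulators were lower (Dnmt3l, Tet1 and Tet2) and 1 was higher (Tet3). Over all tested genes 16.9% were called, 8.43% lower and 8.49% higher. The groups did not overlap for 6 regulators, against 36.4% of all tested genes. Between the GFP+ populations, SAG against RA, Dnmt3l and Dnmt3a were lower and Tet1 was higher, where 24.5% of all genes were called, 14.8% lower and 9.78% higher. Here 5 regulators did not overlap, against 42.9% of all genes. In SAG GFP+ against RA GFP- cells, Dnmt3l, Dnmt3a and Uhrf1 were lower and Tet3 and E2f6 were higher, where 28.5% of all genes were called, 16.5% lower and 12% higher. There 5 regulators did not overlap, against 41.1% of all genes. The last of these comparisons changes both the medium and the sort, and each group serves in more than 1 comparison. The median log2 fold change over the 10 regulators was -0.36, 0.14 and -0.24 in this order, beside -0.02, -0.02 and -0.01 over all tested genes. In sorted bulk cells, fewer cells of a type and less RNA per cell cannot be told apart.

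**Figure D1:**
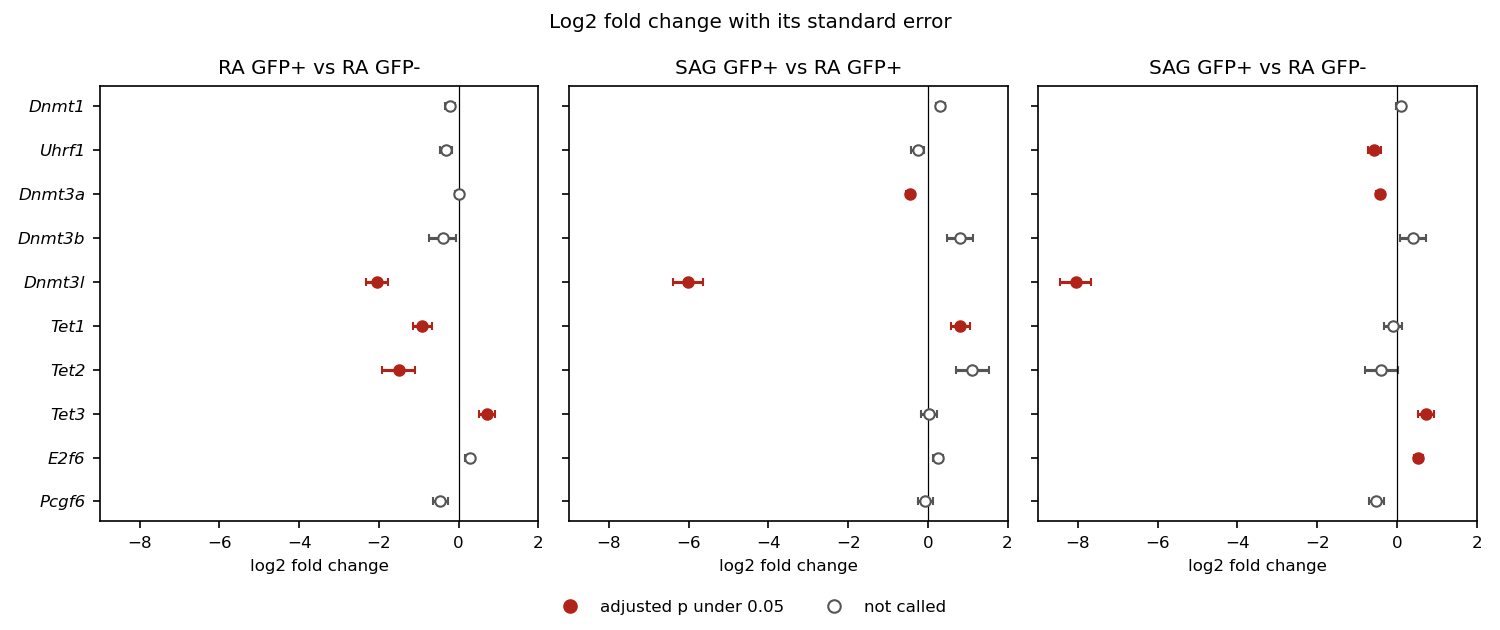
Log2 fold change of the 10 regulators in the 3 comparisons (x axis, log2 units, with bars of 1 standard error). Filled points have an adjusted p under 0.05. Dnmt3l has the lowest value in each panel, at -2.04, -6.01 and -8.05, and its bar overlaps that of Tet2 (-1.51) in the first.

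Dnmt3l (ENSMUSG00000000730, chr10:78041947-78063622, + strand, GRCm38), the catalytically inactive partner of the de novo enzymes, varied most. Its level was 207, 145 and 94.7 CPM in the 3 RA GFP- libraries. It was 43.4, 32.9 and 32.4 CPM in the RA GFP+ libraries, and 0.285, 0.787 and 0.584 CPM in the SAG GFP+ libraries, where it rested on 43 counts in all. The 3 groups did not overlap, with RA GFP- highest in every library and SAG GFP+ close to 0. RA GFP+ was 4.12-fold lower than RA GFP- (log2 fold change -2.04, SE 0.27, adjusted p = 0.000471). SAG GFP+ was 64.5-fold lower than RA GFP+ (log2 fold change -6.01, SE 0.37, adjusted p = 2.37e-06), which placed Dnmt3l 122nd from the lowest among 16772 genes. SAG GFP+ was 265-fold lower than RA GFP- (log2 fold change -8.05, SE 0.39, adjusted p = 1.87e-07). The gene was called in all 17 alternatives of each comparison. Of its exon bases, 67 (2.24%) are shared with Aire on the opposite strand, which had 1210 counts over all libraries against 15231 for Dnmt3l. The setting for strand in the counting is not given in the sources used here.

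Most markers of naive pluripotency were lower where Dnmt3l was lower. Between the GFP+ groups their median change was smaller than that of Dnmt3l (-1.52 beside -6.01). Of the 12, all tested, 10 were lower in RA GFP+ than in RA GFP-, 7 were lower and 1 (Nanog) was higher in SAG GFP+ than in RA GFP+, and 12 were lower in SAG GFP+ than in RA GFP-, with list medians of -3.66, -1.52 and -5.71. Zfp42 (Rex1), a marker of naive stem cells, was at 94.1 to 144 CPM in RA GFP-, 7.93 to 12.2 in RA GFP+ and 0.187 to 0.467 in SAG GFP+. Prdm14, a repressor of de novo methylation in naive cells, had 11.2 to 14.9 CPM in RA GFP-, 0.302 to 0.663 in RA GFP+ and no counts in SAG GFP+. Between the GFP+ groups both Zfp42 and Prdm14 fell further than the list median. The part of the naive markers in the Dnmt3l result was not tested. The 3 genes whose pattern over the 9 libraries lay nearest to that of Dnmt3l were Rhox6, Rhox9 and Dazl. Their root-mean-square differences from it in centred log2 CPM were 0.37, 0.43 and 0.60, where Dnmt3l itself varied by 3.39 about its mean. Rhox6 and Rhox9 belong to a family of near-identical copies, so that their counts are uncertain.

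Dnmt3a (ENSMUSG00000020661, chr12:3806007-3914443), a de novo methyltransferase, was steady within groups. Its level was 176, 174 and 188 CPM in RA GFP-, 182, 173 and 189.7 in RA GFP+, and 130.6, 130.4 and 139 in SAG GFP+. All 3 SAG libraries lay below all 6 RA libraries, and the RA groups overlapped. SAG GFP+ was lower than RA GFP+ (log2 fold change -0.45, SE 0.10, adjusted p = 0.00671) and lower than RA GFP- (-0.43, SE 0.10, adjusted p = 0.00736). Without replicate 2 of SAG GFP+ the adjusted p of the latter was 0.0508. Within RA the difference was 0.02 (SE 0.10, adjusted p = 0.929), and its sign changed with the scaling. Levels of Cyth3, Cnot8 and St3gal4 followed it most closely over the 9 libraries, with root-mean-square differences of 0.08, 0.08 and 0.09 where Dnmt3a varied by 0.21.

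Dnmt3b (ENSMUSG00000027478, chr2:153649450-153687730), the other de novo methyltransferase, differed more between replicates than between groups. It was at 252, 194 and 119.8 CPM in RA GFP-, 175, 138 and 114 in RA GFP+, and 398, 166 and 185 in SAG GFP+. The highest library of each group was replicate 1, and all 3 groups overlapped. Its log2 fold change was -0.41 (SE 0.33, adjusted p = 0.467) in RA GFP+ against RA GFP-, 0.81 (SE 0.34, adjusted p = 0.103) in SAG GFP+ against RA GFP+ and 0.40 (adjusted p = 0.399) in SAG GFP+ against RA GFP-. The second of these was 0.32 without replicate 1 of SAG GFP+, and the third was -0.08 without that library. The fit that gave the calls had no term for replicate number. In alternative fits the same-numbered RA libraries were paired by a replicate block, either over the 6 RA libraries or over all 9. The block over all 9 also tied the SAG libraries by number. Dnmt3b was called lower in RA GFP+ in the 6-library block (log2 fold change -0.37, adjusted p = 0.0263) and not in the 9-library block (-0.36, adjusted p = 0.165).

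Levels per kilobase of exon show how the makeup of the Dnmt3 family differed. Dnmt3l held 47.7 to 53.6% of the summed CPM per kilobase of the 3 genes in RA GFP-, 22.7 to 24.3% in RA GFP+ and 0.11 to 0.65% in SAG GFP+. Dnmt3b held 35.3 to 39.2%, 50.1 to 57.4% and 80.0 to 90.8% in the same order. Dnmt3a held 8.17 to 17.03%, 18.3 to 25.6% and 9.12 to 19.3%. By this measure, Dnmt3l and Dnmt3b together made up most of the family in all 9 libraries, with Dnmt3l nearly absent from the SAG libraries. These shares use the length of all annotated exons, which may exceed the isoforms in use. That length was 16.6 kb for Dnmt3a, 5.11 for Dnmt3b and 2.99 for Dnmt3l, so it lowers Dnmt3a most. In CPM, Dnmt3a had the highest mean of the 3 in RA GFP+ (181.6, against 142.5 and 36.2), and Dnmt3b in the other groups.

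**Figure D2:**
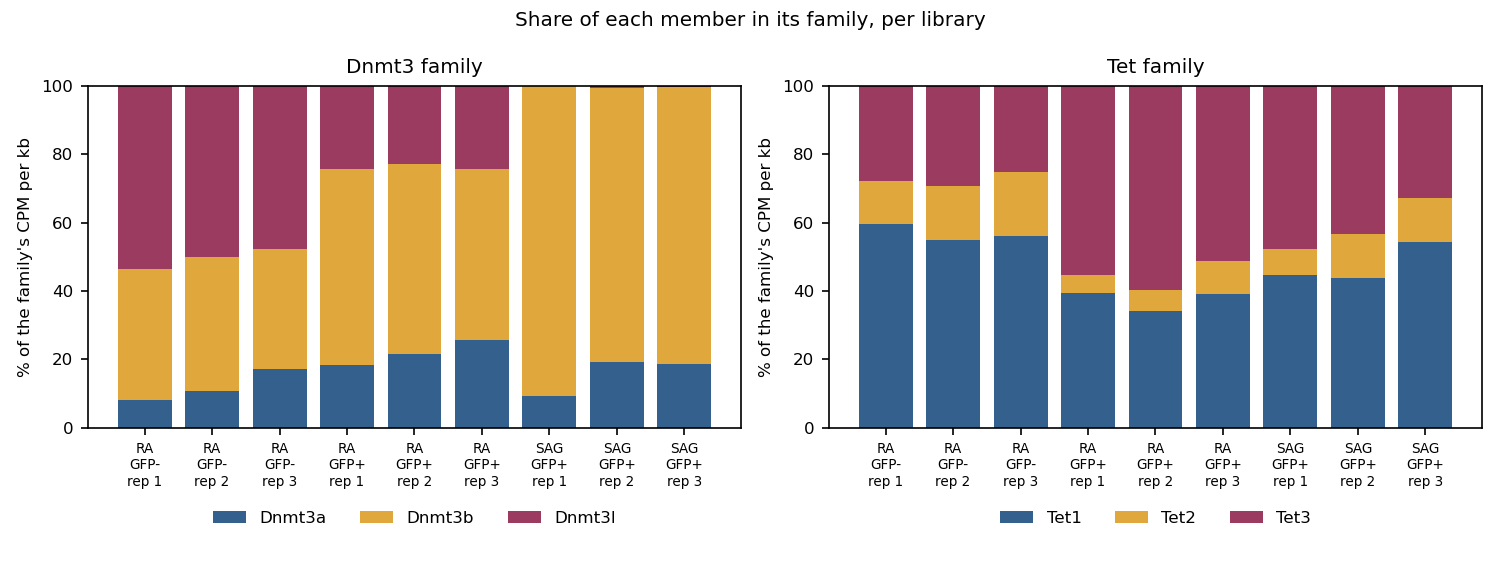
Share of each gene in its family (y axis, % of the family's summed CPM per kilobase of exon) in each of the 9 libraries, for the Dnmt3 genes (left) and the Tet genes (right). Dnmt3l falls from 47.7 to 53.6% in RA GFP- to 0.65% or less in SAG GFP+, and Tet3 is the main Tet gene in RA GFP+ (51.1 to 59.8%).

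Dnmt1 (ENSMUSG00000004099, chr9:20907209-20959888), the maintenance methyltransferase, was abundant in all groups. Its level was 516, 564 and 631 CPM in RA GFP-, 439.7, 503 and 529.6 in RA GFP+, and 599.9, 617 and 612 in SAG GFP+. The SAG libraries lay above all RA GFP+ libraries and within the range of RA GFP-. No comparison passed the test. The log2 fold changes were -0.22 (SE 0.11, adjusted p = 0.236), 0.31 (SE 0.11, adjusted p = 0.0669) and 0.10 (adjusted p = 0.566). The second became a call with DESeq2 (adjusted p = 0.0398), with only the groups compared (adjusted p = 0.0399) and without replicate 1 of RA GFP- (adjusted p = 0.0336).

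Uhrf1 (ENSMUSG00000001228, chr17:56303321-56323486), which recognises half-methylated DNA, had 440.0, 503 and 449.9 CPM in RA GFP-, 390.4, 372 and 361 in RA GFP+, and 397, 295 and 249 in SAG GFP+. All RA GFP- libraries lay above the other 6, while the GFP+ groups overlapped. Uhrf1 was lower in SAG GFP+ than in RA GFP- (log2 fold change -0.57, SE 0.15, adjusted p = 0.0178). It no longer passed without replicate 2 of RA GFP- (adjusted p = 0.0633), without replicate 2 of SAG GFP+ (0.0739) and without replicate 3 of SAG GFP+ (0.0662). In RA GFP+ against RA GFP- the log2 fold change was -0.31 (SE 0.15, adjusted p = 0.206), a call in the 6-library block (-0.31, adjusted p = 0.0220) and not in the 9-library block (-0.31, adjusted p = 0.125). Between the GFP+ groups it was -0.26 (adjusted p = 0.257), or -0.44 (adjusted p = 0.0189) without replicate 1 of SAG GFP+. Per kilobase, Uhrf1 and Dnmt1 were the highest of the 10 regulators in each group, at means of 109 and 77.3 CPM per kilobase in RA GFP-, 87.9 and 66.5 in RA GFP+, and 73.7 and 82.6 in SAG GFP+.

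The genes nearest to Uhrf1 in pattern were Kctd3, Tk1 and Prpsap1, with root-mean-square differences of 0.06, 0.08 and 0.08 where Uhrf1 varied by 0.30. Tk1 encodes thymidine kinase, an S-phase enzyme. Over 12 S-phase genes the summed CPM was 3819.9 to 4424 in RA GFP-, 3216 to 3402 in RA GFP+ and 3186 to 4143 in SAG GFP+. Of these 12, 3 were lower in RA GFP+ than RA GFP-, 1 was lower in SAG GFP+ than RA GFP+, 2 were lower in SAG GFP+ than RA GFP-, and none was higher. Within RA, Rrm2 kept its call without any single library, while those of Mcm3 (adjusted p = 0.0718) and Pcna (0.0796) were lost without replicate 2 of RA GFP+. The call of Ccne1 between the GFP+ groups was lost without replicate 1 or 2 of RA GFP+ or replicate 2 or 3 of SAG GFP+, at an adjusted p of up to 0.0933. The call of Mcm3 in SAG GFP+ against RA GFP- was lost in 8 of the 9 fits without 1 library, at up to 0.150. The part of S-phase content in the levels of Uhrf1 and Dnmt1 was not tested.

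**Figure D3:**
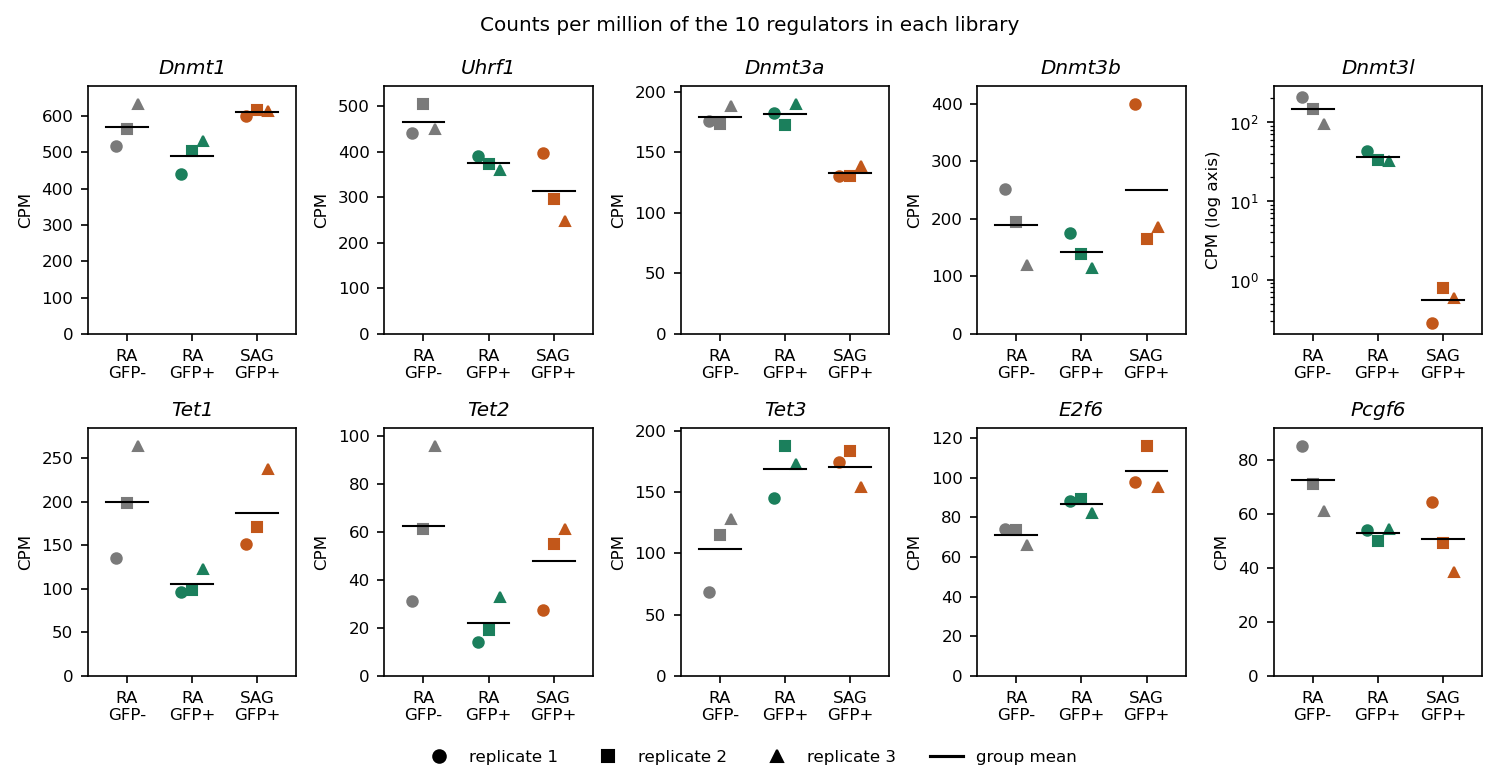
CPM of each of the 10 regulators (y axis, linear from 0 except for Dnmt3l, which has a log axis) in the 9 libraries by group (x axis). Symbols mark the replicate number and bars the group mean. The 3 SAG libraries of Dnmt3l lie under 1 CPM, and the replicate 1 libraries are highest of their group for Dnmt3b and lowest for Tet1 and Tet2.

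Tet1 (ENSMUSG00000047146, chr10:62804570-62908996), the Tet gene best known from embryonic stem cells, had 135, 199 and 263 CPM in RA GFP-. It had 96.2, 98.6 and 123 CPM in RA GFP+, and 150.9, 171 and 237 in SAG GFP+. RA GFP+ lay below both other groups, which overlapped each other. Tet1 was lower in RA GFP+ than in RA GFP- (log2 fold change -0.91, SE 0.23, adjusted p = 0.0182) and higher in SAG GFP+ than in RA GFP+ (0.82, SE 0.23, adjusted p = 0.0235). SAG GFP+ against RA GFP- gave -0.10 (adjusted p = 0.787). Within RA the call was lost without replicate 3 of RA GFP- (adjusted p = 0.0682), replicate 1 of RA GFP+ (0.0707) or replicate 2 of RA GFP+ (0.0763). Between the GFP+ groups it was lost without replicate 1 of RA GFP+ (adjusted p = 0.0852), replicate 2 of RA GFP+ (0.0870) or replicate 3 of SAG GFP+ (0.0936).

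Tet2 (ENSMUSG00000040943, chr3:133463679-133545139) had 31.1, 61.5 and 95.8 CPM in RA GFP-, 14.0, 19.3 and 32.8 in RA GFP+, and 27.5, 55.0 and 61.4 in SAG GFP+. The RA groups overlapped, since replicate 3 of RA GFP+ exceeded replicate 1 of RA GFP-, yet each RA GFP+ library lay below the RA GFP- library of its own number. Its log2 ratios within the pairs were -1.15, -1.67 and -1.55. Tet2 was lower in RA GFP+ than in RA GFP- (log2 fold change -1.51, SE 0.42, adjusted p = 0.0296), and the adjusted p was 1.36e-05 in the 6-library block and 9.69e-05 in the 9-library block. Without the block the call was lost when replicate 2 of RA GFP- (adjusted p = 0.0644), replicate 3 of RA GFP- (0.113), replicate 1 of RA GFP+ (0.104) or replicate 2 of RA GFP+ (0.108) was left out. SAG GFP+ against RA GFP+ gave 1.12 (SE 0.42, adjusted p = 0.0735), a call without replicate 1 of RA GFP- (adjusted p = 0.0399), replicate 3 of RA GFP+ (0.0308) or replicate 1 of SAG GFP+ (0.0238). SAG GFP+ against RA GFP- gave -0.39 (adjusted p = 0.516).

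Tet1 and Tet2 shared a feature that cuts across the groups. In each of the 3 groups, both were lowest in the library numbered 1 and highest in the library numbered 3. The highest library exceeded the lowest by 1.94, 1.28 and 1.57 times for Tet1 and by 3.08, 2.35 and 2.23 times for Tet2, in RA GFP-, RA GFP+ and SAG GFP+. Markers of neurons and neural progenitors were also low in RA GFP+. The summed CPM of 7 neuron markers was 309 to 451 in RA GFP-, 83.02 to 101 in RA GFP+ and 379.5 to 636 in SAG GFP+, and none of them was at 0 in any group. All 7 were lower in RA GFP+ than in RA GFP-, 6 were higher in SAG GFP+ than in RA GFP+, and 2 were higher and 1 lower in SAG GFP+ than in RA GFP-. Of 7 neural progenitor markers, whose sums are given above, 7 were lower within RA, and 6 were higher and 1 lower between the GFP+ groups. Of 9 core and primed pluripotency markers, 1 was higher and 5 were lower within RA. Between the GFP+ groups 4 were higher and 1 lower, and in SAG GFP+ against RA GFP- 3 were higher and 5 lower. The list medians were -1.44, 1.81 and -1.49. The sums were 756 to 1250 CPM in RA GFP-, 682 to 950 in RA GFP+ and 820 to 1456 in SAG GFP+. The part of the neural and pluripotency markers in the Tet1 and Tet2 values was not tested.

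Nearest in pattern to Tet1 were Notch1, Psd and Mybl1, at root-mean-square differences of 0.17, 0.17 and 0.18 where Tet1 varied by 0.49. Nearest to Tet2 were Trim9, Spock2 and Gm9958, at 0.24, 0.26 and 0.27 where Tet2 varied by 0.84.

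Tet3 (ENSMUSG00000034832, chr6:83362373-83459084), the Tet gene best known from the oocyte, zygote and neural lineage, ran the other way. It had 68.2, 115 and 128 CPM in RA GFP-, 145, 187 and 173 in RA GFP+, and 174, 183 and 155 in SAG GFP+. All RA GFP- libraries lay below all 6 GFP+ libraries, and the GFP+ groups overlapped. Tet3 was higher in RA GFP+ (log2 fold change 0.70, SE 0.20, adjusted p = 0.0334) and in SAG GFP+ (0.72, SE 0.20, adjusted p = 0.0200) than in RA GFP-. The first call was lost without replicate 2 of RA GFP- (adjusted p = 0.0558), replicate 2 of RA GFP+ (0.126) or replicate 3 of RA GFP+ (0.0759), and the second without replicate 2 of SAG GFP+ (0.0562). The first had an adjusted p of 0.000999 in the 6-library block and 0.0107 in the 9-library block. Between the GFP+ groups the log2 fold change was 0.02 (adjusted p = 0.957). Amotl1, Dzip1l and Akap13 were nearest in pattern, each at a root-mean-square difference of 0.12 where Tet3 varied by 0.44.

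Per kilobase of exon, Tet1 held 55.0 to 59.6% of the Tet family in RA GFP-, 34.0 to 39.5% in RA GFP+ and 43.7 to 54.3% in SAG GFP+. Tet3 held 25.3 to 29.4%, 51.1 to 59.8% and 32.8 to 47.8%, and Tet2 held 12.6 to 18.7%, 5.27 to 9.61% and 7.47 to 12.9%. Tet1 was thus the main Tet transcript in every RA GFP- library and Tet3 in every RA GFP+ library, while the order of the pair varied among SAG libraries.

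E2f6 (ENSMUSG00000057469, chr12:16810963-16839742), the E2F factor that represses without the retinoblastoma protein, had 74.1, 73.7 and 66.0 CPM in RA GFP-, 88.1, 89.2 and 82.2 in RA GFP+, and 98.0, 116 and 95.5 in SAG GFP+. The 3 groups did not overlap, with RA GFP- lowest and SAG GFP+ highest. E2f6 was higher in SAG GFP+ than in RA GFP- (log2 fold change 0.53, SE 0.12, adjusted p = 0.00566), a call kept in all 17 alternatives. The neighbouring steps were 0.28 (SE 0.12, adjusted p = 0.133) within RA and 0.25 (SE 0.12, adjusted p = 0.139) between the GFP+ groups. The first was a call in the 6-library block (0.28, adjusted p = 0.0366) and not in the 9-library block (0.28, adjusted p = 0.0623). Zfp719, Tmem33 and Bloc1s6 were nearest in pattern, each at 0.07 where E2f6 varied by 0.23.

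Pcgf6 (ENSMUSG00000025050, chr19:47033617-47050906), the subunit that defines PRC1.6, had 85.0, 71.1 and 61.2 CPM in RA GFP-, 54.0, 50.1 and 54.3 in RA GFP+, and 64.2, 49.1 and 38.6 in SAG GFP+. RA GFP+ lay below RA GFP- in every library, and SAG GFP+ spanned the RA GFP+ range. No comparison passed the test, with log2 fold changes of -0.46 (SE 0.18, adjusted p = 0.117), -0.06 (adjusted p = 0.845) and -0.52 (SE 0.18, adjusted p = 0.0536). Pcgf6 was called lower in RA GFP+ than in RA GFP- in both the 6-library block (-0.45, adjusted p = 0.0129) and the 9-library block (-0.44, adjusted p = 0.0425). The third comparison was a call under 5 settings without the block, among them DESeq2 (adjusted p = 0.0326) and leaving out replicate 1 of SAG GFP+ (adjusted p = 0.00934).

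In RA GFP+ against RA GFP- 4 regulators were called without the block, where 16.9% of all tested genes were called. The 6-library block called 8, adding Dnmt3b, Uhrf1 and Pcgf6 as lower and E2f6 as higher. The 9-library block called 5, adding Pcgf6 alone. The share of all tested genes called in each block is not given here, so these 2 counts have no background to be set against. In all 3 pairs the RA GFP+ library was below its RA GFP- partner for Dnmt1, Dnmt3b, Dnmt3l, Tet1, Tet2, Uhrf1 and Pcgf6, and above it for Tet3 and E2f6. The share of all tested genes with the same sign in all 3 pairs was not computed, so this has no background either. Of these genes, Dnmt1, Dnmt3b, Uhrf1, Pcgf6 and E2f6 were not called without the block. The Dnmt3l ratios within pairs were -2.26, -2.14 and -1.55 on the log2 scale.

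Germline genes known as targets of promoter methylation or PRC1.6 were mostly lower in SAG GFP+ than in either RA group. Of the 25 listed, 23 were tested. Between the GFP+ groups 20 were lower in SAG and 1 was higher, beside 14.8% and 9.78% of all tested genes. In SAG GFP+ against RA GFP- 21 were lower and none was higher, beside 16.5% and 12% of all tested genes. Within RA, 4 were higher and 7 lower in GFP+, beside 8.49% and 8.43%. The list was chosen with earlier results of these data known, so these counts are not an independent test of it. The median log2 fold changes were -0.55 within RA, -4.09 between the GFP+ groups and -4.77 in SAG GFP+ against RA GFP-, or -4.09 and -4.59 for the latter pair with the 3 genes at 0 set to their bounds. The summed CPM of the list was 280.3 to 389 in RA GFP-, 365 to 464 in RA GFP+ and 42.4 to 79.3 in SAG GFP+. Stra8, whose levels are given below, made up a large part of this sum in both RA groups. Within RA the sum therefore does not describe the list as a whole, of which 4 genes were higher and 7 lower in GFP+. The count within RA fell to 7, with 3 higher and 4 lower, without replicate 1 of RA GFP-, to 7, with 2 higher and 5 lower, without replicate 2 of RA GFP-, and to 5, with 2 higher and 3 lower, without replicate 2 of RA GFP+.

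Stra8, the retinoic acid-inducible gene of meiotic entry, had 141, 133 and 146 CPM in RA GFP- and 188, 324 and 213 in RA GFP+. In the SAG libraries it had 0.0407, 0.112 and 0.156 CPM, from 8 counts in all. SAG GFP+ was lower than RA GFP+ (log2 fold change -11.12, SE 0.34, adjusted p = 1.78e-08) and lower than RA GFP- (-10.33, SE 0.34, adjusted p = 1.13e-08). Within RA it was higher in GFP+ (0.79, adjusted p = 0.0127), a call lost without replicate 2 of RA GFP- (0.0508) or replicate 2 of RA GFP+ (0.0560). Ddx4 (Vasa), a germ cell RNA helicase, had 8.26 to 11.6 CPM in RA GFP-, 19.0 to 27.2 in RA GFP+ and 0.862 to 1.59 in SAG GFP+. It was higher in RA GFP+ than RA GFP- (1.14, adjusted p = 0.00737), and in SAG GFP+ it was lower than in RA GFP+ (-4.16, adjusted p = 3.64e-06) and RA GFP- (-3.03, adjusted p = 1.61e-05).

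Some other germline genes had their highest levels in RA GFP-, the group with the most Dnmt3l. Within RA, the 4 called higher in GFP+ were Stra8, Ddx4, Meioc (log2 fold change 1.63) and Tdrd1 (1.66), beside the 7 called lower. Dazl, a germ cell RNA-binding protein, had 21.3, 7.70 and 14.7 CPM in RA GFP-, 2.59, 2.22 and 2.58 in RA GFP+ and no counts in the SAG libraries. It was lower in RA GFP+ than in RA GFP- (log2 fold change -2.56, SE 0.38, adjusted p = 0.00164). In SAG GFP+ it was at least 62.9-fold lower than in RA GFP+ and at least 377-fold lower than in RA GFP-, against 3 counts over the group. Tuba3a, a testis tubulin, had 6.67 to 16.0 CPM in RA GFP-, 1.28 to 2.02 in RA GFP+ and at most 0.0815 in SAG GFP+, and fell by 2.98 on the log2 scale within RA (adjusted p = 0.000645). Hormad1, shown above with both motifs, had 416 counts in RA GFP-, 42 in RA GFP+ and 2 in SAG GFP+, a ratio between the GFP+ groups of 19.2 (exact 95% interval 5.01 to 164). Slc25a31 had 133, 93 and 1 counts, a ratio between the GFP+ groups of 85.2 (exact 95% interval 14.9 to 3402), and was not called within RA. Tex14, a germ cell bridge protein, was lower than in RA GFP- both in SAG GFP+ (-5.41, adjusted p = 2.57e-06) and in RA GFP+ (-1.32, adjusted p = 0.00962). Floors and intervals cover counting error only.

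**Figure D4:**
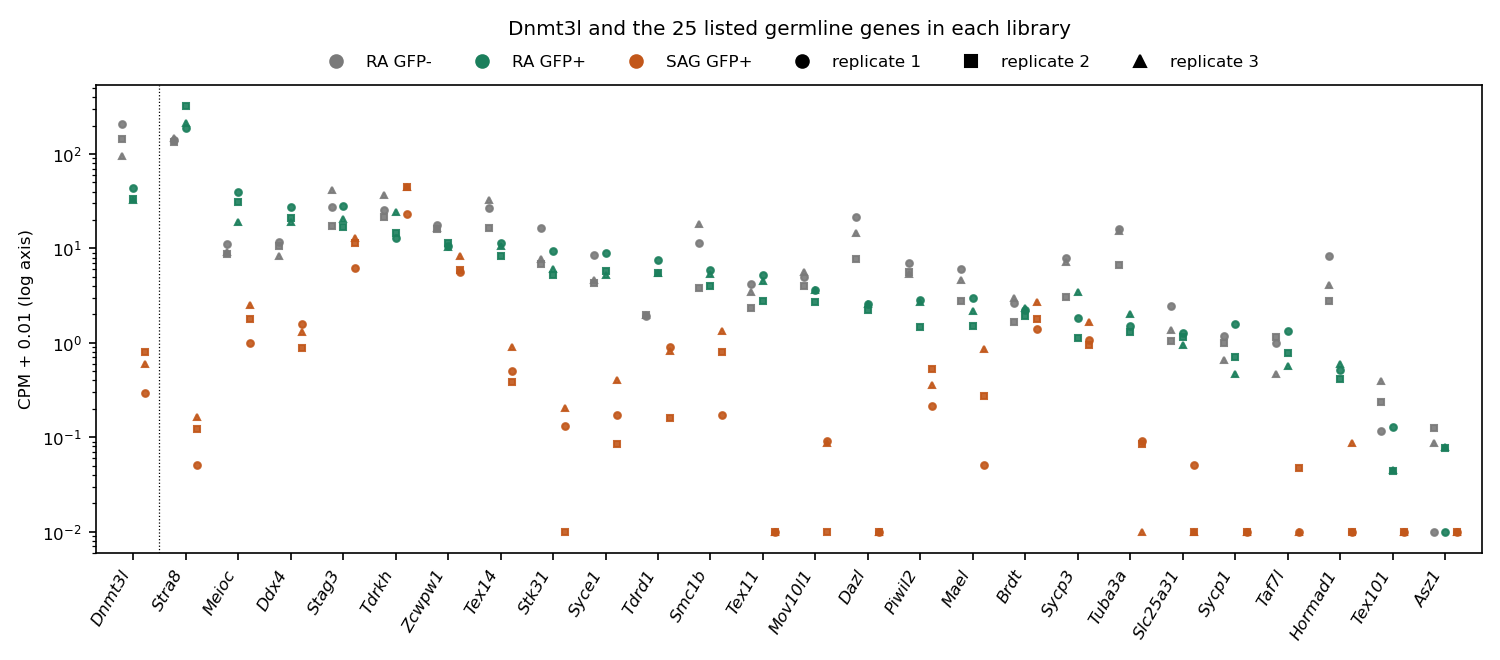
CPM plus 0.01 (y axis, log) of Dnmt3l and the 25 listed germline genes (x axis) in the 9 libraries, coloured by group and shaped by replicate. Points at 0.01 are libraries with no counts. SAG libraries lie lowest for most genes, with Stra8 at 0.0407 to 0.156 CPM, and Dnmt3l and Dazl are highest in RA GFP-.

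Markers of primordial germ cells were given the same reading. Of 7, 6 were tested. They summed to 203 to 307 CPM in RA GFP-, 165 to 216 in RA GFP+ and 85.9 to 118 in SAG GFP+. Within RA 1 was higher in GFP+ (Prdm1) and 3 were lower, between the GFP+ groups 3 were lower in SAG, and in SAG GFP+ against RA GFP- 5 were lower, with list medians of -1.54, -2.03 and -3.79. Dazl belongs to both lists. Nanos3, a germ cell specification gene, had 3.96 to 6.53 CPM in RA GFP- and 0.235 to 0.745 in RA GFP+. Dazl was the marker at 0 in SAG GFP+. The part of such cells in the germline values was not tested.

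Partners of the regulators were read from lists in the order of their roles. Of 16 tested cofactors of methylation and of histone H3K9 silencing, 1 was higher and 3 were lower within RA, 1 was higher and 1 lower between the GFP+ groups, and 4 were higher and 6 lower in SAG GFP+ against RA GFP-. The list medians were -0.14, 0.09 and -0.01. The first count was 2 without replicate 1 of RA GFP+ or replicate 2 of RA GFP+, each time lower. The last was 6 without replicate 1 of RA GFP-, 5 without replicate 2 of RA GFP-, 3 without replicate 2 of SAG GFP+ and 5 without replicate 3 of SAG GFP+, 6 with no filter on low counts and 3 with only the groups compared. Dppa3 (Stella), which keeps Uhrf1 from chromatin in the oocyte and early embryo, had 55.8, 26.6 and 37.9 CPM in RA GFP-, 1.76, 0.807 and 2.02 in RA GFP+, and 0.0407, 0.112 and 0.273 in SAG GFP+. Its groups did not overlap, and the log2 fold changes were -4.71 (adjusted p = 3.49e-05), -3.38 (adjusted p = 0.00140) and -8.09 (adjusted p = 2.17e-06). Zfp57, which guards imprinted methylation, was lower in RA GFP+ (-0.90, adjusted p = 0.00503) and in SAG GFP+ (-1.12, adjusted p = 0.000771) than in RA GFP-. Suv39h2, an H3K9 methyltransferase, was higher in SAG GFP+ than in RA GFP+ (0.48, adjusted p = 0.00728).

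A further list held 10 genes of methyl-CpG reader families, not all members of which bind methylated DNA. None was called within RA by edgeR, where Mbd1 had the smallest p (log2 fold change 0.36, adjusted p = 0.0631). Of the 10, 3 had an unadjusted p under 0.05, DESeq2 called 2 higher, and both blocks gave 3 higher. Between the GFP+ groups 1 was lower, Mbd1 (-0.51, adjusted p = 0.00927, or 0.0501 without replicate 1 of RA GFP+). In SAG GFP+ against RA GFP- 2 were higher and 1 lower, among them Zbtb33 (Kaiso), at 0.54 (adjusted p = 0.0138), and Mbd3, at -0.50 (adjusted p = 0.0129, lost without replicate 1 of RA GFP-, replicate 2 of SAG GFP+ or replicate 3 of SAG GFP+). The other was Mbd5, at 0.83 (adjusted p = 0.0195), likewise lost without replicate 2 or 3 of SAG GFP+ (adjusted p up to 0.0622), where the count was 1. The list medians were 0.22, -0.12 and 0.03.

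Of 11 demethylation partners 1 was higher and 3 lower within RA, 3 were higher and 4 lower between the GFP+ groups, and 1 was higher and 3 lower in SAG GFP+ against RA GFP-, with list medians of -0.03, -0.02 and 0.06. The first count was 2 without replicate 1 of RA GFP+ or replicate 2 of RA GFP+, with 1 higher and 1 lower. Gadd45g, a stress-inducible factor linked to demethylation, had 28.1, 33.5 and 29.8 CPM in RA GFP-, 3.49, 4.54 and 5.82 in RA GFP+ and 12.6, 20.7 and 16.6 in SAG GFP+. Like Tet1 and the neuron markers, it was lowest in RA GFP+, with log2 fold changes of -2.72 (adjusted p = 3.49e-05) within RA and 1.85 (adjusted p = 0.000215) between the GFP+ groups. Its relatives Gadd45a (-1.70, adjusted p = 4.56e-05) and Gadd45b (-3.11, adjusted p = 4.89e-05) were lower in SAG GFP+ than in RA GFP-. Cxxc4 (Idax), a CXXC-domain protein known to bind Tet2, had 16.6, 17.4 and 34.8 CPM in RA GFP+ and 81.3, 130.1 and 166 in SAG GFP+ (2.45, adjusted p = 0.000533). Cxxc5 was higher in RA GFP+ than in RA GFP- (0.69, adjusted p = 0.00385).

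Of 13 other PRC1.6 subunits and partners 1 was higher within RA, 2 were higher and 1 lower between the GFP+ groups, and 2 were higher and 1 lower in SAG GFP+ against RA GFP-, with list medians of -0.08, 0.16 and 0.09. Within RA the 6-library block gave 3 higher and 2 lower, the 9-library block 2 higher and 2 lower, and RLE scaling 0. These counts rested on single libraries. Over the fits without 1 library they ran from 0 to 2, 0 to 4 and 0 to 5, with 0 reached without replicate 2 of RA GFP-, replicate 1 of RA GFP+, replicate 2 of RA GFP+, replicate 3 of RA GFP+ or replicate 2 of SAG GFP+ in the first, replicate 2 of RA GFP+ in the second, and replicate 2 of SAG GFP+ or replicate 3 of SAG GFP+ in the third. Ring1, a ubiquitin ligase of PRC1 complexes, was higher in SAG GFP+ than in RA GFP+ (log2 fold change 0.70, adjusted p = 0.00951, or 0.0520 without replicate 2 of RA GFP+). Hdac1, a histone deacetylase, was lower there (-0.59, adjusted p = 0.0191), a call lost without replicate 1 or 2 of RA GFP+ or replicate 2 or 3 of SAG GFP+. Mga, the E-box-binding scaffold of PRC1.6, had 176 to 281 CPM in RA GFP-, 295 to 302 in RA GFP+ and 309 to 342 in SAG GFP+, and was higher in SAG GFP+ than in RA GFP- (0.50, adjusted p = 0.0258). L3mbtl2, another subunit, was lower in that comparison (-0.70, adjusted p = 0.0156). Each call was lost without replicate 2 or 3 of SAG GFP+, and also without replicate 2 (Mga) or 1 (L3mbtl2) of RA GFP-.

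Among 7 other E2F genes 2 were lower within RA, none was called between the GFP+ groups, and 1 was higher and 2 lower in SAG GFP+ against RA GFP-, with list medians of -0.25, 0.26 and 0.10. The 6-library block gave 2 higher and 2 lower within RA, and the 9-library block 0 higher and 2 lower. E2f1, an activator of S-phase genes, had 73.5, 70.7 and 87.2 CPM in RA GFP-, 39.0, 39.2 and 43.5 in RA GFP+ and 41.6, 45.0 and 47.9 in SAG GFP+. It was lower in both GFP+ groups than in RA GFP- (log2 fold changes -0.93, adjusted p = 0.000562, and -0.78, adjusted p = 0.000864), where E2f6 had its lowest values. Between the GFP+ groups E2f7 had the smallest p in edgeR (0.36, adjusted p = 0.108), 3 had an unadjusted p under 0.05, and DESeq2 also called 0.

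Of 15 genes of other PRC1 complexes and of PRC2, 1 was higher and 3 lower within RA, 1 was higher and 3 lower between the GFP+ groups, and 3 were higher and 5 lower in SAG GFP+ against RA GFP-, with list medians of 0.11, -0.16 and 0.01. The first count was 2 without replicate 1 of RA GFP-, replicate 2 of RA GFP+ or replicate 2 of SAG GFP+, with 1 higher and 1 lower. Suz12, a core subunit of PRC2, was lower in RA GFP+ (log2 fold change -0.68, adjusted p = 0.000618) and in SAG GFP+ (-0.95, adjusted p = 2.99e-05) than in RA GFP-. Cbx7, the chromodomain subunit of canonical PRC1 in stem cells, had 186, 158 and 172 CPM in RA GFP-, 247, 234 and 159 in RA GFP+ and 59.8, 56.9 and 66.0 in SAG GFP+. Pcgf5, a relative of Pcgf6, had 27.3 to 31.8 CPM in RA GFP-, 36.4 to 45.5 in RA GFP+ and 8.55 to 14.4 in SAG GFP+. Both were lower in SAG GFP+ than in RA GFP+ (-1.81, adjusted p = 2.17e-05, and -1.82, adjusted p = 6.30e-05), whereas Pcgf6 itself did not pass the test there.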

How the data were processed

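Poly(A) RNA of 9 sorted cell populations was sequenced from stranded libraries, per the labels' protocols. The authors deposited raw read counts per Ensembl gene, with no normalization. Per the submitters' processing notes, GRCm38 was the build, reads passed through Trim Galore 0.5.0, and Bowtie2 2.3.4.1 and Subread 1.6.2 with its featureCounts were used. The strand setting, annotation release and handling of multiply mapped reads were not given in the sources used here, so genes with near-identical copies or antisense neighbours are uncertain. The RA dose is 250 nM in the series text and 250 µM in the treatment protocol, and the dose of SAG is not given in the sources used here. The replicates are biological per the series text, which does not say whether they came from separate cultures. The p-values therefore rate group differences against the spread between these samples only.

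Counts were fitted with edgeR 4.0.16 (R 4.3.3) in 1 model with a term for each group and all 9 libraries, after TMM scaling (0.972 to 1.03), filterByExpr with a minimum count of 10, quasi-likelihood tests and Benjamini-Hochberg adjustment over 16772 genes, with a threshold of 0.05. Standard errors (SE) are the absolute log2 fold change over the square root of F. CPM are scaled by TMM, and log2 CPM used a prior count of 2. The biological coefficient of variation was 0.226. The procedure was tested on simulated data. Symbols, coordinates (1-based) and exon lengths came from the GENCODE annotation of GRCm38, and promoter windows from RefSeq. Both motifs were chosen after the data were seen. Of a group with 0 counts, folds are given against 3 counts over the group.

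All 10 regulators are named. From each of the 7 pathway and 10 marker lists the rule takes, per comparison, the 2 called genes with the smallest adjusted p, or the gene with the smallest p. Not all of these are printed, and Nanog, Prdm14, Pcna, Mbd5, Hormad1, Slc25a31, Meioc and Tdrd1 were chosen after their values were seen. Members and lists were chosen with earlier results of these data known. Genes of like pattern have the smallest root-mean-square difference in centred log2 CPM over the 9 libraries.

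Deviations from group means correlated between same-numbered RA GFP- and RA GFP+ libraries at 0.273, 0.307 and 0.347. These were therefore treated as pairs, in ratios within pairs and in the alternative fits with a replicate block. The fit that gave the calls had no such block, because the labels state no blocking. For SAG GFP+ the values were 0.111, -0.082 and 0.182 against RA GFP+ and 0.175, -0.022 and 0.242 against RA GFP-. Its numbers were not treated as pairs, although the replicate block ties them too. Alternatives were RLE scaling, library totals, DESeq2 1.42.0, no filter on low counts, at least 1 CPM in 3 libraries, only the groups compared, the replicate block with 6 or 9 libraries, and leaving out each library.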

Additional observations from a re-analysis of the deposited data

How the results depend on the processing

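Each result was recomputed under 17 alternatives. The share of all tested genes called is given only for the fit described above, so counts under the alternatives have no such background. The number of regulators called in RA GFP+ against RA GFP- was 4, with a replicate block on 6 libraries 8 and on 9 libraries 5, and 1 to 4 over the fits without 1 library. In SAG GFP+ against RA GFP+ it was 3, with no filter on low counts 5 (adding Dnmt3b and Tet2), with a replicate block on 9 libraries 6 and on 6 libraries 6, and 2 to 5 without 1 library. In SAG GFP+ against RA GFP- it was 5, and 2 to 6 without 1 library. The replicate block on 6 or 9 libraries gave 6 there. In the SAG comparisons, where the numbers were not treated as pairs, the block added Dnmt1, Dnmt3b and Tet2 (against RA GFP+) and Pcgf6 (against RA GFP-). Whether same-numbered SAG and RA libraries share a batch is not given in the sources used here. The cause of these added calls was not tested. Signs reversed only for uncalled values, of which Dnmt3b (0.40) and Tet2 (-0.39) in SAG GFP+ against RA GFP- were the largest. In RA GFP+ against RA GFP-, Dnmt3a was at -0.016 by library totals, -0.0036 without replicate 2 of RA GFP- and -0.012 without replicate 3 of RA GFP+ (up to 0.056 without replicate 3 of RA GFP-). In SAG GFP+ against RA GFP+, Tet3 was at -0.012 by library totals, -0.078 without replicate 1 of RA GFP+ and -0.014 without replicate 2 of SAG GFP+ (up to 0.10 in such fits), and Pcgf6 ran from -0.25 to 0.11, the latter without replicate 3 of SAG GFP+. In SAG GFP+ against RA GFP-, Dnmt3b was at -0.084 without replicate 1 of SAG GFP+ (up to 0.69), Tet1 at 0.16 without replicate 3 of RA GFP- and 0.063 without replicate 1 of SAG GFP+ (down to -0.29), and Tet2 at 0.051 without replicate 3 of RA GFP- (down to -0.69). Dnmt3l kept its direction and its call in all 17 alternatives of each comparison. With 3 libraries a group, small differences may be missed, and the 43 counts of Dnmt3l in SAG limit the precision of its folds.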
